A study of Mus musculus with 15 samples.

Results

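Zfp symbols name mouse genes for zinc finger proteins, whose fingers are short loops of protein folded around a zinc ion. The genes examined here were those whose annotated symbol is Zfp followed only by digits. They were selected on their array values: the probe set with the highest mean over all 15 arrays stood for each gene, which was kept where that mean reached 7 on the log2(signal + 16) scale. Of 305 such genes annotated on the array, 268 were bright enough to be tested and 200 were kept. Across all genes, 10088 of the 13111 tested had a mean of 7 or more. The label of heart expression rests on that level alone, because detection calls were not used.

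The study measured RNA in the heart apex of untreated male mice of 3 kinds with whole-genome Affymetrix arrays, 5 arrays a group. The groups were B6C3F1, the first-generation cross of C57BL/6 females with C3H males by its name, and its parental inbred strains C3H (C3H/HeJ) and C57Bl/6 (C57BL/6J). All mice carried a radiotelemetry transmitter placed at 7 weeks and were 9 to 10 weeks old at collection. From each heart 50 ng of total RNA was amplified in 2 cycles before hybridisation. The comparisons asked how far zinc finger gene expression differed between the parental strains and where the hybrid lay between them.

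As background, most mouse Zfp genes encode proteins with tandem fingers that bind DNA. Many carry a KRAB domain, which recruits the co-repressor Trim28 and, through it, the methyltransferase Setdb1 and heterochromatin proteins, and such proteins silence retrotransposons and keep imprints. Others bind RNA, mark proteins for degradation or act as cofactors of lineage transcription factors. KRAB zinc finger genes lie in clusters that differ between mouse strains in copy number and sequence.

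All 15 arrays were scaled alike, with a 2% trimmed mean signal of 500.26 to 500.28. The 6 cardiomyocyte markers (Myh6, Tnnt2, Tnni3, Actc1, Ryr2 and Myl2) were bright in every group, and 0 of them were called between the parents by limma, with 2 at an unadjusted p under 0.05. Of the other marker lists, 2 of 5 fibroblast genes were higher in C3H and 2 of 5 endothelial genes were lower in C3H. In the same fit, 2 of 5 fibroblast and 4 of 5 endothelial genes had an unadjusted p under 0.05. The summed fibroblast level was 14.99 to 15.32 in B6C3F1, 14.86 to 15.35 in C3H and 14.69 to 15 in C57Bl/6 hearts (log2), and the groups overlapped. The summed endothelial level was 12.71 to 13.47 in B6C3F1, 12.36 to 13.19 in C3H and 12.99 to 13.41 in C57Bl/6 hearts, also with overlap. Among the other lists, 1 of 3 atrial genes, 1 of 5 macrophage genes and the 1 Schwann cell gene tested were higher in C3H, while 1 of 5 macrophage genes and the 1 red cell gene tested were lower. The part of cell composition in the differences below was not tested. In whole tissue, fewer cells of a type and less RNA per cell cannot be told apart. The 12 poly-A control probe sets averaged 8.70 ± 0.15 on B6C3F1, 9.34 ± 0.64 on C3H and 8.69 ± 0.60 on C57Bl/6 arrays (log2, SD, n = 5). Their B6C3F1 minus C3H difference of -0.64 had an exact two-sided permutation p of 0.00794, the smallest that 5 against 5 allows, and 0.0715 after adjustment over 9 tests. C3H replicate 4 read 10.48, above 8.97 to 9.22 on the other C3H arrays, and without it the difference was -0.36. C57Bl/6 replicate 5 read 7.66, below 8.70 to 9.12 on the other C57Bl/6 arrays. Over all arrays C3H minus C57Bl/6 was 0.65, and it was 0.37 without C3H replicate 4 and 0.39 without C57Bl/6 replicate 5. The numbers in the sample titles run in 1 block per strain, and the labels do not say what they count.

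The Zfp genes spanned means of 7.04 to 13.96 on the log2(signal + 16) scale, with a median of 8.25. Of the 200 genes, 82 had a mean under 8 and 27 had a mean of 10 or more. The highest means belonged to Zfp106, an RNA-binding protein needed to maintain motor neurons and muscle (13.96), and Zfp622, a factor in assembly of the large ribosomal subunit (12.92). They were followed by Zfp91, a ubiquitin ligase of noncanonical NF-kB signalling (11.94), Zfp771 (11.56) and Zfp445 (11.11), a KRAB protein that keeps imprints. Just inside the limit lay Zfp974 (7.08), Zfp580 (7.05) and Zfp867 (7.04), and just outside it Zfp398 (6.995), Zfp653 (6.98) and Zfp469 (6.97). A mean over all arrays can hide a strain below the limit: 15 genes had 1 strain mean under 7 and 1 gene had 2.

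Within strains, the median SD of the Zfp genes was 0.233 in B6C3F1, 0.248 in C3H and 0.224 in C57Bl/6 hearts, against 0.191, 0.226 and 0.199 for all genes with a mean of 7 or more. For all genes tested it was 0.225, 0.264 and 0.24 in the same order, above the Zfp genes in C3H and C57Bl/6. The median Zfp level per array averaged 8.29 ± 0.02 in B6C3F1, 8.34 ± 0.09 in C3H and 8.31 ± 0.06 in C57Bl/6 hearts (SD, n = 5). The largest of the 3 differences in that median, -0.06 for B6C3F1 minus C3H, had an exact two-sided permutation p of 0.206 (0.371 after adjustment over 9 tests).

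Between the parental strains, 34 of the 200 Zfp genes differed at an adjusted p under 0.05 (limma, adjusted over all 13111 genes). Of these, 18 were higher and 16 were lower in C3H. That is 17% of the Zfp genes, against 15.7% of all genes tested and 18.8% of genes with a mean of 7 or more, so that the count is near the background. The median difference of the 200 Zfp genes was 0.01, against -0.02 for all genes tested. For 118 of the 200 (59.0%) the difference was smaller than 0.25 in either direction, against 59.1% of genes with a mean of 7 or more. The arrays of C3H and C57Bl/6 did not overlap for 23 Zfp genes (11.5%), against 11.2% of all genes tested. Of the 34, 21 differed at least 1.5-fold and 7 at least 2-fold on the log2(signal + 16) scale, on which the folds of dim genes come out too small. Among the 184 genes whose 3 strain means were all 7 or more, 29 were called (15.8%).

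With the poly-A control level as a covariate, 19 of the 34 calls held, 8 higher and 11 lower in C3H, and 11.7% of all genes tested were called. With each array centred on its median, 26 Zfp genes were higher and 10 lower in C3H, while the median difference of all genes moved to 0.08. The part of the poly-A level in these differences was not tested.

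**Figure D1:**
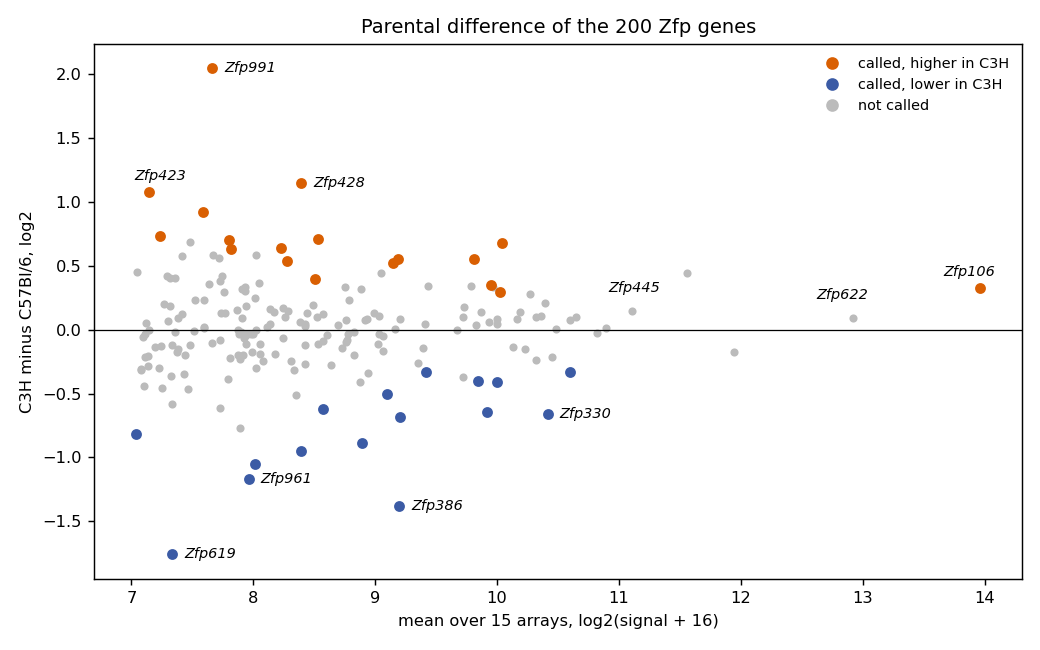
Each point is 1 of the 200 Zfp genes, with its mean over 15 arrays on the x axis (log2(signal + 16)) and its C3H minus C57Bl/6 difference on the y axis (log2). The 18 genes called higher in C3H are orange, the 16 called lower are blue, and the others, grey, lie around 0 at every level.

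The largest rise in C3H was that of Zfp991 on chromosome 4 (probe set 1451477_at). It measured 8.13, 8.10, 7.95, 7.93 and 7.65 in B6C3F1 hearts, 8.20, 8.36, 8.45, 8.92 and 8.79 in C3H hearts and 7.02, 6.32, 6.10, 6.12 and 6.94 in C57Bl/6 hearts. Every C3H array was above every B6C3F1 array, and every B6C3F1 array was above every C57Bl/6 array. The C3H minus C57Bl/6 difference was 2.04 ± 0.21 (SE), or 4.12-fold, with an adjusted p of 5.3e-07. Its C57Bl/6 mean of 6.50 was under the limit of 7. Another probe set of Zfp991 moved the opposite way, as given below with the other probe sets.

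Zfp428 on chromosome 7 (1424490_at) measured 8.60, 8.68, 8.64, 9.05 and 8.38 in B6C3F1 hearts, 8.75, 8.84, 9.13, 8.62 and 8.79 in C3H hearts and 7.53, 7.74, 8.13, 7.24 and 7.76 in C57Bl/6 hearts. The B6C3F1 and C3H arrays lay together, and none of them reached down to the C57Bl/6 arrays. Its C3H minus C57Bl/6 difference was 1.15 ± 0.16 (2.21-fold, adjusted p = 4.2e-05).

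Zfp423 on chromosome 8 (1419380_at), a Smad and EBF cofactor that commits cells to the fat lineage, measured 7.30, 7.58, 7.56, 7.42 and 7.52 in B6C3F1 hearts, 7.60, 7.37, 7.55, 7.20 and 7.87 in C3H hearts and 6.51, 6.49, 6.24, 5.88 and 7.08 in C57Bl/6 hearts. Again the hybrid and C3H arrays overlapped each other and lay above all C57Bl/6 arrays. The C3H minus C57Bl/6 difference was 1.08 ± 0.21 (2.11-fold, adjusted p = 0.00114). Its C57Bl/6 mean of 6.44 was under the limit of 7, so that Zfp423 was kept through the other groups. Zfp521, its close relative and an inhibitor of EBF, was also higher in C3H: 9.95, 9.81, 10.00, 9.54 and 9.69 in B6C3F1 hearts, 10.21, 10.48, 10.15, 10.06 and 10.14 in C3H hearts and 9.83, 9.79, 9.86, 9.96 and 9.84 in C57Bl/6 hearts. Here the hybrid arrays lay with those of C57Bl/6, and all C3H arrays were above both. The C3H minus C57Bl/6 difference of Zfp521 was 0.35 ± 0.11 (adjusted p = 0.0278), and it lost its call (adjusted p of up to 0.0844) without C3H replicate 2, without any one of C57Bl/6 replicates 1, 2, 3 and 5, and with the Gapdh ratio as a covariate. The other tested probe set of Zfp521 (1439909_at) gave 0.04 (adjusted p = 0.938) and was not called, so that the rise rests on the probe set of highest mean. The adipocyte marker measured, of 3 listed, was too dim to be tested.

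The fourth of the rises without overlap was that of Zfp397, a SCAN domain protein, with 7.59, 7.89, 7.83, 7.43 and 7.87 in B6C3F1 hearts, 8.31, 8.32, 7.71, 8.22 and 8.40 in C3H hearts and 7.31, 7.41, 7.53, 7.66 and 7.55 in C57Bl/6 hearts. The hybrid arrays overlapped both parents, and the C3H minus C57Bl/6 difference was 0.70 ± 0.16 (1.63-fold, adjusted p = 0.00402). The other tested probe set of Zfp397 gave -0.52 (adjusted p = 0.131) and was not called.

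The largest fall was that of Zfp619 on chromosome 7 (1430088_at), with 7.80, 7.71, 7.86, 7.45 and 7.51 in B6C3F1 hearts, 5.66, 6.42, 5.97, 6.41 and 6.99 in C3H hearts and 8.14, 7.83, 8.09, 7.98 and 8.20 in C57Bl/6 hearts. All C3H arrays were below all others, and the hybrid arrays reached up into the C57Bl/6 range. Between the parents the difference was -1.76 ± 0.21 (3.38-fold, adjusted p = 5.39e-06). Its C3H mean of 6.29 was under 7.

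Zfp386 on chromosome 12 (1451146_at) measured 9.80, 9.36, 9.39, 9.49 and 9.28 in B6C3F1 hearts, 8.32, 8.47, 8.50, 8.44 and 8.16 in C3H hearts and 9.91, 9.51, 9.65, 9.65 and 10.06 in C57Bl/6 hearts. The C3H arrays stood apart below both other groups, which overlapped. C3H minus C57Bl/6 gave -1.38 ± 0.13 (2.6-fold, adjusted p = 1.71e-07), the smallest adjusted p among the Zfp genes.

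Zfp961 on chromosome 8 (1434296_at) measured 7.55, 8.02, 7.65, 8.39 and 7.79 in B6C3F1 hearts, 8.04, 7.60, 6.95, 7.41 and 7.08 in C3H hearts and 8.62, 8.56, 8.72, 8.42 and 8.60 in C57Bl/6 hearts. All C57Bl/6 arrays were above all others, and the hybrid arrays overlapped those of C3H. C3H was lower than C57Bl/6 by a log2 difference of -1.17 ± 0.20 (2.25-fold, adjusted p = 0.000253). Zfp39 on chromosome 11 (1441198_at) measured 8.18, 7.91, 8.28, 7.81 and 7.69 in B6C3F1 hearts, 7.51, 7.43, 7.46, 7.67 and 7.47 in C3H hearts and 8.91, 8.07, 8.67, 8.70 and 8.46 in C57Bl/6 hearts. Its C3H arrays were the lowest of all, and the hybrid arrays reached into the C57Bl/6 range. C3H minus C57Bl/6 came to -1.05 ± 0.16 (2.08-fold, adjusted p = 0.000106).

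**Figure D2:**
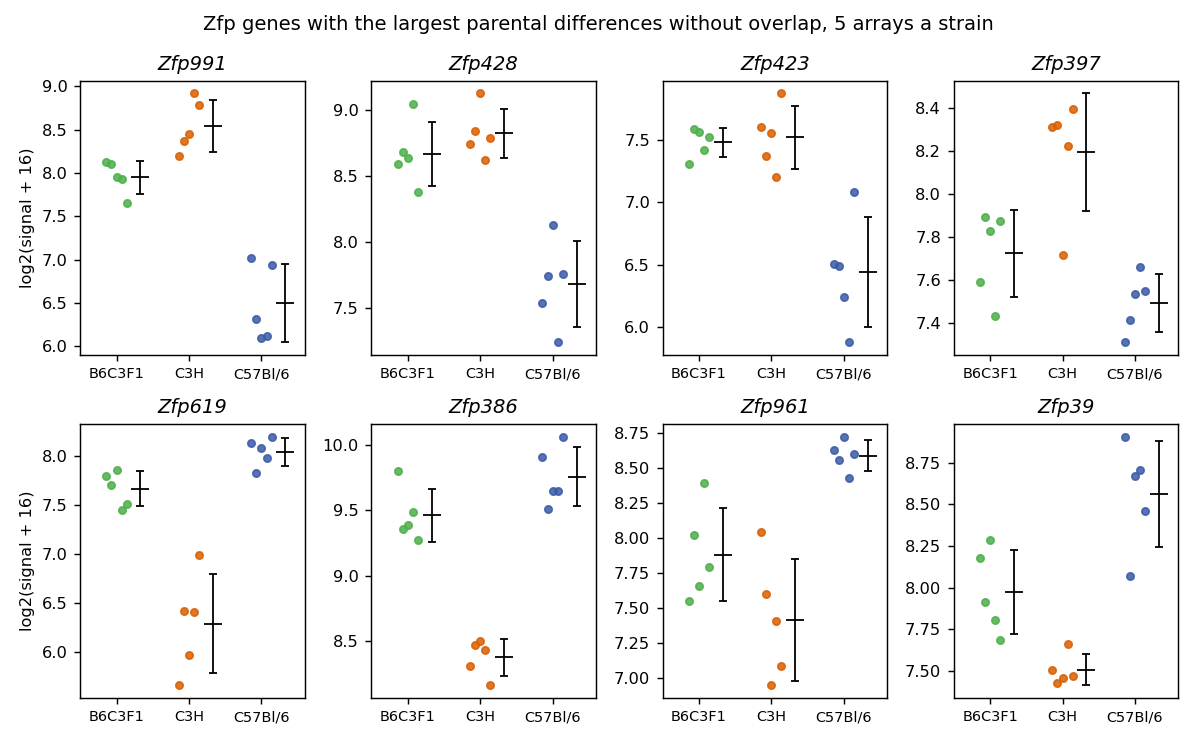
Array values (points, log2(signal + 16)) of the 4 non-overlapping Zfp genes with the largest rise in C3H (upper row) and the 4 with the largest fall (lower row), for B6C3F1, C3H and C57Bl/6, with the mean and SD beside each group (n = 5). The parental arrays do not overlap in any panel, and the hybrid lies with C3H for Zfp423 and nearer C57Bl/6 for Zfp619.

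Promoters are shown for 3 of these genes and for Zfp445, described below with the hybrid, because their differences are among the largest between the parents or, for Zfp445, from the midparent. Each runs 5′ to 3′ on the gene's own strand from 250 bases before to 50 after the first listed start (RefSeq, GRCm38.p6), with GC boxes in capitals. A GC box, bound by Sp factors, was searched as GGGCGG and as its reverse complement CCGCCC, and overlapping matches were counted.
Zfp428 (chr7:24506837-24507136, plus strand): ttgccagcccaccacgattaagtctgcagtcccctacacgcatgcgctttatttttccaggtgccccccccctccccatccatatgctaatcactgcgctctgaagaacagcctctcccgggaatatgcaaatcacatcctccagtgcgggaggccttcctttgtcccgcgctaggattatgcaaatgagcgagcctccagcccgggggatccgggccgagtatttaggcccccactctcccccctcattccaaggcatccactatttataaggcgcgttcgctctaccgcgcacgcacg
Zfp619 (chr7:39517516-39517815, plus strand): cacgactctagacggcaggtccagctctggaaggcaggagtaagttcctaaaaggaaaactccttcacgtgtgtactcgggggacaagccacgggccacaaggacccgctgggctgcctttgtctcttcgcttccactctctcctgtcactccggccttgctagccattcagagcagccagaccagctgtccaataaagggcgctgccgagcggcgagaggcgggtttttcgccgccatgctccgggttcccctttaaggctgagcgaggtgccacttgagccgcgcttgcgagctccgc
Zfp386 (chr12:116047474-116047773, plus strand): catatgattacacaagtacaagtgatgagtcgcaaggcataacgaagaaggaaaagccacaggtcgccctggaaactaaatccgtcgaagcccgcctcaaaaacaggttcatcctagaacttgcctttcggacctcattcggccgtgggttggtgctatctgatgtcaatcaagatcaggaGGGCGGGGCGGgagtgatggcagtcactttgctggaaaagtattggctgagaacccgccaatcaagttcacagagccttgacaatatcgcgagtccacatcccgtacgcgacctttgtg
Zfp445 (chr9:122865957-122866256, minus strand): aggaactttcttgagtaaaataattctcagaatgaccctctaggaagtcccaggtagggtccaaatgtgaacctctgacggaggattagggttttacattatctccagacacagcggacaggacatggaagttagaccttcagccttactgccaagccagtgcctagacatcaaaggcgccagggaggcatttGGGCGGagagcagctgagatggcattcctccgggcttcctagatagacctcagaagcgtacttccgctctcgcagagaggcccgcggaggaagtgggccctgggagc
The window of Zfp386 held 2 overlapping GC boxes and that of Zfp445 held 1, while these letters are absent from the windows of Zfp428 and Zfp619. The 4 windows held 19, 21, 17 and 10 CpG dinucleotides in the order printed. Of the 200 Zfp genes, 165 matched a promoter entry, and 55.2% of them held a GC box, against 66.6% of genes with a mean of 7 or more and 35.9% of all listed genes. Their median CpG count was 17, against 22 for genes with a mean of 7 or more and 7 for all listed genes. A match describes the reference sequence and is not evidence of binding.

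The other falls without overlap ranged from -0.95 for Zfp593 to -0.33 for Zfp507. Zfp593 (1447703_x_at), whose yeast counterpart works in export of the large ribosomal subunit, measured 8.74, 8.70, 8.52, 9.00 and 8.43 in B6C3F1 hearts, 7.56, 7.71, 8.14, 7.83 and 7.63 in C3H hearts and 8.54, 8.97, 8.52, 8.73 and 8.83 in C57Bl/6 hearts. All C3H arrays were lower than both other groups, which overlapped (C3H minus C57Bl/6 adjusted p = 0.000108). Zfp330, a nucleolar protein, measured 10.49, 10.57, 10.49, 10.75 and 10.76 in B6C3F1 hearts, 9.95, 10.01, 10.05, 10.10 and 9.82 in C3H hearts and 10.55, 10.67, 10.71, 10.58 and 10.72 in C57Bl/6 hearts. Its spread was small, so that a difference of -0.66 ± 0.09 (1.58-fold) reached an adjusted p of 2.54e-05. Zfp131, a BTB domain protein, differed by -0.65 ± 0.11 (adjusted p = 0.000263), with 9.76, 9.58, 9.72, 9.62 and 9.29 in C3H hearts and 10.29, 10.08, 10.33, 10.11 and 10.38 in C57Bl/6 hearts. Zfp839 differed by -0.89 ± 0.15 (adjusted p = 0.000205), with C57Bl/6 arrays between 9.27 and 9.37 and all C3H arrays below them. Zfp867 differed by -0.81 ± 0.23 (adjusted p = 0.0204), and 1 C3H array, at 5.53, was far below the other 4 (6.50 to 6.90). Its C3H mean of 6.51 was under the limit of 7. Its call was lost with arrays centred on their median, with the poly-A covariate and with only the 2 parental strains in the fit (adjusted p of up to 0.0921). Outside the naming rule, and so chosen after their values were seen, the calls were 8 rises in C3H between 0.52 (Zfp52) and 0.92 (Zfp759), among them 0.53 for Zfp335, a subunit of histone methyltransferase complexes, and 5 falls between -0.33 (Zfp507) and -0.50 (Zfp251). Several of these calls depended on the setting: of 28 alternatives, Zfp335 passed in 19, Zfp507 in 15 and Zfp367, another of the falls, in 7. Zfp335 was lost without C3H replicate 2, 3 or 4 or C57Bl/6 replicate 1, 3 or 5, and Zfp507 without C3H replicate 3 or 5 or C57Bl/6 replicate 1, 2, 3 or 5. Zfp367 was lost on leaving out any array other than B6C3F1 replicate 2, C3H replicate 2 and C57Bl/6 replicate 4.

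Among RNA-binding and RNA-processing members, the strongest by mean, Zfp106 (1425332_at), was higher in C3H. It measured 13.80, 13.64, 13.90, 13.84 and 14.01 in B6C3F1 hearts, 14.44, 14.17, 14.17, 14.19 and 13.99 in C3H hearts and 14.03, 13.73, 13.83, 13.95 and 13.78 in C57Bl/6 hearts. C3H and C57Bl/6 overlapped at 1 array each, and the hybrid lay with C57Bl/6. The C3H minus C57Bl/6 difference was 0.33 ± 0.09 (1.26-fold, adjusted p = 0.0196), and the call was lost without C57Bl/6 replicate 5 and with the poly-A covariate (adjusted p of up to 0.124). Zfp598, a ubiquitin ligase that acts on collided ribosomes, was higher in C3H by 0.55 ± 0.13 (adjusted p = 0.0058), with 9.42, 9.17, 9.54, 9.81 and 9.44 in C3H hearts and 8.77, 9.31, 8.95, 8.83 and 8.76 in C57Bl/6 hearts. The groups overlapped through C57Bl/6 replicate 2, and the call was lost with the poly-A covariate (adjusted p = 0.057). Zfp326, a splicing factor of the DBIRD complex, was higher in C3H by 0.39 ± 0.13 (adjusted p = 0.0413), with no overlap. Its call was lost in 12 of 28 alternatives, among them leaving out a single array of B6C3F1 (replicate 1), of C3H (replicate 1, 2 or 4) or of C57Bl/6 (replicate 1, 3 or 4), with an adjusted p of up to 0.109.

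Of the genes listed for a known role, Zfp36, Zfp622, Zfp346, Zfp638, Zfp207 and Zfp91 were not called between the parents in their probe set of highest mean. Zfp593 and Zfp330, given above, are not on that list and were called lower in C3H. Zfp36, or tristetraprolin, which marks AU-rich messages for decay, averaged 9.86 ± 0.28 in B6C3F1, 9.83 ± 0.57 in C3H and 9.79 ± 0.27 in C57Bl/6 hearts (SD, n = 5), with C3H arrays from 9.35 to 10.70. Zfp622 differed between the parents by 0.09 ± 0.11, Zfp346, a double-stranded RNA-binding protein, by 0.14 ± 0.13, and Zfp638, a splicing cofactor of fat cell differentiation, by 0.04 ± 0.13. Zfp207, a Bub3 partner at the mitotic spindle, differed by 0.08 ± 0.14. Zfp91 differed by -0.18 ± 0.09 (adjusted p = 0.225). In the fit over all probe sets, 1426326_at of Zfp91 was called the opposite way (0.64, adjusted p = 0.00301). For Zfp207, 1438714_at had the hybrid lower than C57Bl/6 by -0.74 (adjusted p = 0.0465) and than C3H by -0.75 (adjusted p = 0.033), as signed log2 differences. The other tested probe sets of Zfp622, Zfp346 and Zfp638 were not called between the parents.

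Among DNA-binding regulators with a known role, Zfp410, an activator of Chd4, was higher in C3H by 0.30 ± 0.09 (adjusted p = 0.0318). It measured 9.94, 10.11, 9.93, 9.96 and 9.82 in B6C3F1 hearts, 10.27, 10.05, 10.15, 10.33 and 10.22 in C3H hearts and 9.98, 9.77, 9.99, 9.87 and 9.95 in C57Bl/6 hearts, and the parental arrays did not overlap. Its target Chd4 measured 10.36, 9.93, 10.05, 9.69 and 10.42 in B6C3F1 hearts, 10.28, 9.90, 10.48, 10.27 and 10.48 in C3H hearts and 9.89, 9.86, 9.63, 9.89 and 9.99 in C57Bl/6 hearts, and 1 C3H array fell within the C57Bl/6 range. Chd4 was higher in C3H by 0.43 ± 0.14 (SE) (adjusted p = 0.0407). The call of Zfp410 was lost in 9 of 28 alternatives, among them the poly-A covariate and leaving out a single array of C3H (replicate 1, 4 or 5) or of C57Bl/6 (replicate 2 or 4), with an adjusted p of up to 0.117. The GC-rich element binders Zfp148 and Zfp281 differed between the parents by 0.14 ± 0.09 and 0.13 ± 0.13, and neither was called. The repressor Zfp652 differed by -0.19 ± 0.18 and was not called.

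Among KRAB members with known targets, Zfp568, which represses a placental promoter of Igf2, was higher in C3H. It measured 9.57, 9.97, 9.89, 9.96 and 9.93 in B6C3F1 hearts, 10.61, 10.87, 10.30, 10.56 and 10.00 in C3H hearts and 9.22, 10.18, 10.07, 9.74 and 9.74 in C57Bl/6 hearts. The C3H arrays lay above all hybrid arrays and overlapped C57Bl/6 at their low end. C3H was higher than C57Bl/6 by 0.68 ± 0.17 (1.6-fold, adjusted p = 0.00786). Zfp809, which silences retroviral DNA, differed by 0.10 ± 0.13 (adjusted p = 0.664) and was not called. Zfp57, which keeps imprints with Zfp445, had a mean of 4.53 and was too dim to be tested.

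Of a list of 27 co-repressor and heterochromatin genes that work with KRAB proteins, 26 were tested, 2 were higher and 1 was lower in C3H. That is 11.5%, against 15.7% of all genes tested, and the median difference was -0.08. Atf7ip, the partner of Setdb1, measured 11.15, 11.18, 11.13, 10.95 and 11.31 in B6C3F1 hearts, 11.06, 11.13, 10.82, 10.42 and 10.50 in C3H hearts and 11.63, 11.54, 11.69, 11.74 and 11.71 in C57Bl/6 hearts. All C57Bl/6 arrays were above all others, and the C3H minus C57Bl/6 difference was -0.87 ± 0.12 (SE) (adjusted p = 3.28e-05). Cbx5, a heterochromatin protein, was higher in C3H by 0.52 ± 0.11 (SE) (adjusted p = 0.00163), with 10.55, 10.58, 10.52, 10.39 and 10.74 in C3H hearts and 10.03, 9.98, 9.94, 9.99 and 10.24 in C57Bl/6 hearts. Trim28 itself differed by -0.03 ± 0.12 (SE) and Setdb1 by 0.13 ± 0.14 (SE), and neither was called. In the zinc finger families outside the symbol rule, 4 of 39 Zbtb genes, 0 of 9 Zscan genes, 1 of 10 Zkscan genes, 4 of 25 genes named Zfp with digits and letters and 0 of 13 Znf or Zc3h genes were called between the parents by limma, or 9 of 96 in all, against 15.7% of all genes tested. At an unadjusted p under 0.05 the Zscan genes gave 2 and the Znf or Zc3h genes 2. With the poly-A covariate, 5 of these 96 genes were called in place of 9.

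The hybrid differed from C57Bl/6 for 9 Zfp genes (4.5%), 4 higher and 5 lower in B6C3F1, against 3.83% of all genes tested and 4.8% of genes with a mean of 7 or more. It differed from C3H for 9 Zfp genes (4.5%), 4 higher and 5 lower in B6C3F1, against 6.2% of all genes tested and 7.53% of genes with a mean of 7 or more. It differed from the midparent, the mean of both parental means, for 1 Zfp gene (0.5%), against 0.633% of all genes tested and 0.823% of genes with a mean of 7 or more. Arrays of B6C3F1 and C57Bl/6 did not overlap for 17 Zfp genes (8.5%), against 6.16% of all genes tested, and arrays of B6C3F1 and C3H for 11 (5.5%), against 6.4%. These comparisons share the hybrid or parental arrays with one another. They were not restricted to the 184 genes whose 3 strain means were all 7 or more. Their counts depended on single arrays: the 9 genes against C57Bl/6 became 4 or 5 without any one of B6C3F1 replicates 1, 2 and 3 or C57Bl/6 replicates 1, 3 and 4, and the 9 against C3H became 5 without B6C3F1 replicate 2 and 14 without C3H replicate 5. With the poly-A covariate 5 genes differed from C3H, 4 higher and 1 lower. With arrays centred on their median, 5 genes differed from C57Bl/6, 4 higher and 1 lower.

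For the 34 genes called between the parents, the place of the hybrid mean was expressed on a scale with C57Bl/6 at 0 and C3H at 1, as a description with no test. It lay between the parents for 30 of 34 genes (88.2%), against 87.9% of the 2052 genes called in all. Its median was 0.41, against 0.47 for those 2052 genes. The hybrid was nearer C57Bl/6 for 23 genes and nearer C3H for 11. This split was not taken over the 2052 genes, so that it is a description only. In the probe set of highest mean, it was outside the parental range on the C57Bl/6 side for Zfp521 and Zfp106, and on the C3H side for Zfp775 and Zfp326. Other probe sets of Zfp106 placed the hybrid elsewhere, as given below. The median was 0.47 for genes higher in C3H and 0.38 for genes lower in C3H. Over all 34 genes together, single hybrid arrays lay at 0.435 to 0.538.

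In the fits, the hybrid differed from C57Bl/6 and not from C3H for 6 of the 34 genes: Zfp991, Zfp428, Zfp423, Zfp961, Zfp39 and Zfp775. It differed from C3H and not from C57Bl/6 for 7: Zfp619, Zfp386, Zfp593, Zfp330, Zfp568, Zfp521 and Zfp106. For the remaining 21 it differed from neither, and a p that misses the threshold does not show that the hybrid equals a parent. These classes use the probe set of highest mean. Other probe sets of Zfp991, Zfp106, Zfp24 and Zfp704 gave other hybrid calls, as given below. The classes were not counted over the 2052 genes called in all, so that their sizes are a description only.

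**Figure D3:**
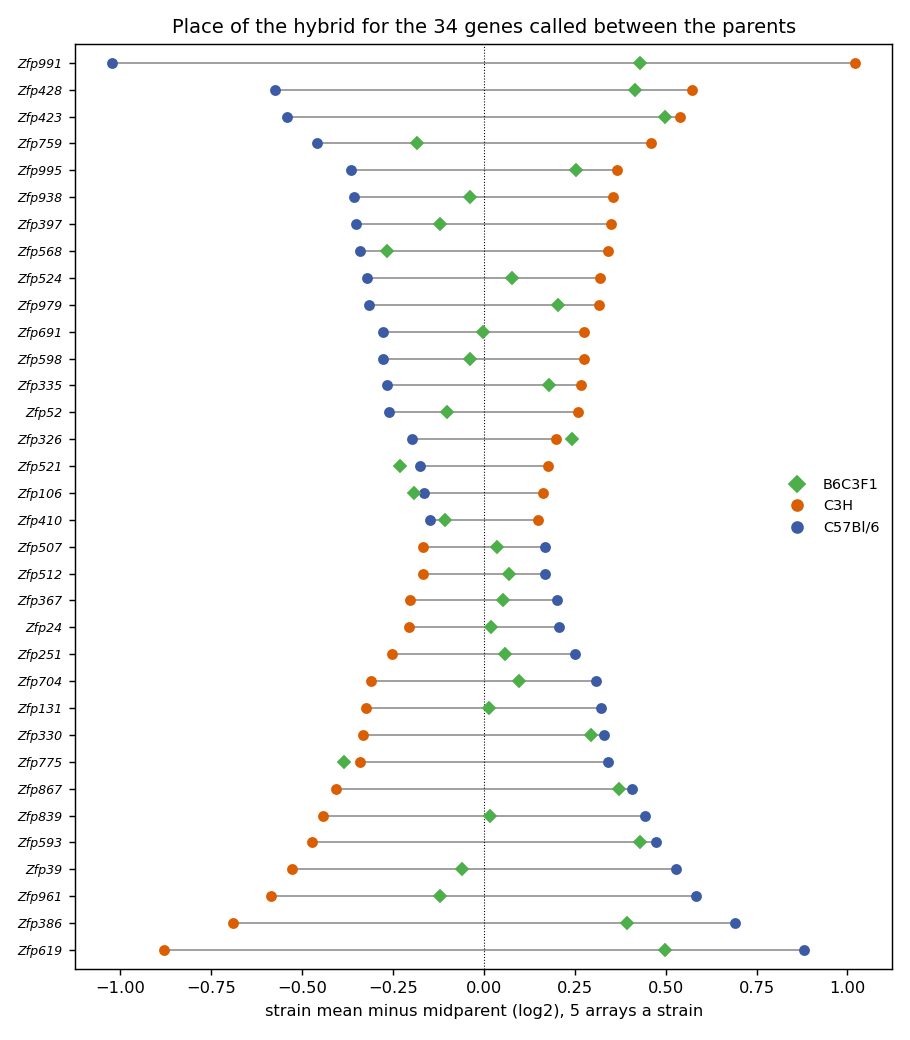
Strain means of the 34 Zfp genes called between the parents, each minus the midparent (x axis, log2), for B6C3F1 (green diamonds), C3H (orange) and C57Bl/6 (blue); genes run from the largest rise in C3H (top) to the largest fall. The hybrid lies between the parents for 30 genes and outside for Zfp326, Zfp521, Zfp106 and Zfp775.

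The rises of the hybrid over C57Bl/6 were 1.45 ± 0.21 for Zfp991 (adjusted p = 0.000224), 1.04 ± 0.21 for Zfp423 (adjusted p = 0.0065), 0.99 ± 0.16 for Zfp428 (adjusted p = 0.00123) and 0.78 ± 0.18 for Zfp105 (adjusted p = 0.0177). The C57Bl/6 means of Zfp991, Zfp423 and Zfp105 were under the limit of 7, so that these genes were kept through the other groups. The other tested probe sets of Zfp991 gave -0.50 and -0.23 against C57Bl/6 and were not called (adjusted p = 0.173 and 0.781). Zfp105 (1460252_s_at), which was not called between the parents, measured 7.38, 7.91, 7.85, 7.62 and 7.71 in B6C3F1 hearts, 7.42, 7.53, 7.35, 6.91 and 7.41 in C3H hearts and 6.65, 7.25, 6.89, 6.92 and 6.89 in C57Bl/6 hearts. All hybrid arrays were above all C57Bl/6 arrays, and the C3H arrays overlapped both. The call of Zfp105 was lost without B6C3F1 replicate 2 or 3 and without C57Bl/6 replicate 1 (adjusted p of up to 0.0575).

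The falls of the hybrid against C57Bl/6 were led by Zfp775, with 9.08, 8.68, 8.79, 9.07 and 9.11 in B6C3F1 hearts, 9.33, 8.94, 9.01, 8.77 and 8.90 in C3H hearts and 9.90, 9.08, 10.05, 9.71 and 9.61 in C57Bl/6 hearts. Its hybrid arrays overlapped C57Bl/6 through replicate 2 of that strain, and the B6C3F1 minus C57Bl/6 difference was -0.73 ± 0.16 (adjusted p = 0.013), lost without C57Bl/6 replicate 3 (adjusted p = 0.0503). Zfp961, Zfp629 and Zfp39 passed narrowly, with differences of -0.70, -0.64 and -0.59 and adjusted p of 0.0496, 0.0486 and 0.0487. Their calls were lost in 18, 16 and 16 of 28 alternatives, for all 3 genes without a single array of B6C3F1 (replicate 1 or 2), of C3H (replicate 2 or 4) or of C57Bl/6 (replicate 1, 3, 4 or 5), with an adjusted p of up to 0.135.

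Against C3H, the hybrid was higher for Zfp619 by 1.38 ± 0.21 (adjusted p = 0.000339), Zfp386 by 1.08 ± 0.13 (adjusted p = 1.73e-05), Zfp593 by 0.90 ± 0.15 (adjusted p = 0.000627) and Zfp330 by 0.63 ± 0.09 (adjusted p = 0.000189). These 4 calls held in every alternative in which the genes were tested. The hybrid was lower than C3H for Zfp612, with 9.16, 8.08, 8.16, 8.19 and 8.37 in B6C3F1 hearts, 8.99, 8.83, 9.67, 9.17 and 8.85 in C3H hearts and 8.76, 8.89, 8.55, 9.02 and 8.63 in C57Bl/6 hearts. Of the hybrid arrays of Zfp612, 4 were below all C3H arrays and replicate 1, at 9.16, was within them. The B6C3F1 minus C3H differences were -0.71 for Zfp612, -0.61 for Zfp568, -0.41 for Zfp521 and -0.35 for Zfp106, with adjusted p of 0.0325, 0.0355, 0.0252 and 0.0262. In a fit over all probe sets, the other tested sets of Zfp612, Zfp521 and Zfp106 were not called against C3H. Those sets gave -0.35 for Zfp612, -0.12 for Zfp521 and -0.21, -0.24 and -0.46 for Zfp106 (adjusted p of 0.0658 to 0.83). All 4 calls in the probe sets of highest mean were lost with the poly-A and the Gapdh covariates and without B6C3F1 replicate 2 (adjusted p of up to 0.176 over the alternatives). Leaving out B6C3F1 replicate 4 also ended each of them, as did B6C3F1 replicate 1 for Zfp568 and Zfp106, B6C3F1 replicate 3 for Zfp612 and Zfp568, B6C3F1 replicate 5 for Zfp612, Zfp568 and Zfp521, C3H replicate 1 for Zfp568 and Zfp106, C3H replicate 2 for Zfp568 and Zfp521, C3H replicate 3 for Zfp612 and C3H replicate 4 for Zfp612, Zfp568 and Zfp106.

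Zfp445 was the 1 Zfp gene that differed from the midparent in its probe set of highest mean. It measured 10.72, 10.74, 10.64, 10.80 and 11.03 in B6C3F1 hearts, 11.61, 11.38, 11.35, 11.40 and 10.99 in C3H hearts and 11.37, 11.14, 11.11, 11.14 and 11.23 in C57Bl/6 hearts (probe set 1454774_at). The hybrid arrays were below every C57Bl/6 array and, apart from replicate 5 at 11.03, below every C3H array. The hybrid was lower than C3H by -0.56 ± 0.11 (adjusted p = 0.0028), than C57Bl/6 by -0.41 ± 0.11 (adjusted p = 0.0379) and than the midparent by -0.48 ± 0.09 (adjusted p = 0.0146), as signed log2 differences. The parents differed by 0.15 ± 0.11 (adjusted p = 0.398). The other tested probe sets of Zfp445 were not called: 1427254_at gave a midparent difference of -0.48 ± 0.20 (adjusted p = 0.302), and 1427255_s_at gave -0.05 ± 0.16 (adjusted p = 0.911). In the probe set of highest mean, the midparent call was lost without any one of B6C3F1 replicates 1, 2 and 3 and without the intensity trend (adjusted p of up to 0.0826). Its call against C57Bl/6 was lost in 11 of 28 alternatives, among them the replicate number as a block, leaving out any one of B6C3F1 replicates 1 to 4 and leaving out any one of C57Bl/6 replicates 1, 3, 4 and 5 (adjusted p of up to 0.129), while its call against C3H held in all 28.

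**Figure D4:**
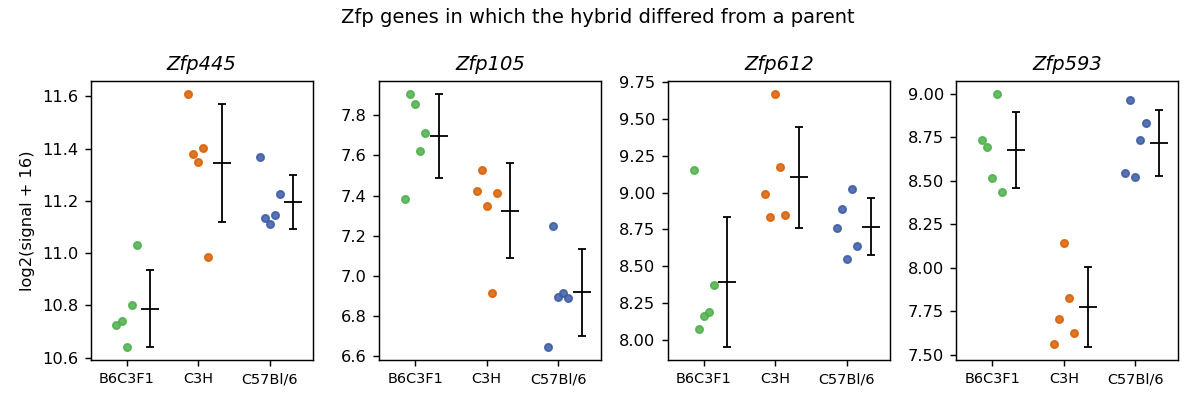
Array values (points, log2(signal + 16)) of Zfp445, Zfp105, Zfp612 and Zfp593 in B6C3F1, C3H and C57Bl/6 hearts, with the mean and SD beside each group (n = 5). The hybrid mean lies below both parents for Zfp445, above C57Bl/6 for Zfp105, below C3H apart from 1 array for Zfp612, and with C57Bl/6 for Zfp593.

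The probe set of highest mean was not always matched by the other probe sets of its gene. Of the 200 genes, 110 had more than 1 annotated probe set and 83 had another one bright enough to be tested. Among the 34 called genes, 12 had 19 such probe sets, tested in a fit over 23048 probe sets. Of the 19, 11 had the same sign as the probe set of highest mean. Of the 8 that were called, 5 had the same sign and 3 the opposite one. Zfp24 and Zfp871, which the naming rule did not pick, were added with their values in view.

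The 3 opposite calls belonged to Zfp24, Zfp704 and Zfp991. For Zfp24, a SCAN domain protein that acts in myelination, the probe set of highest mean (1426895_at) differed by -0.41 ± 0.11 between the parents (adjusted p = 0.0106), a call lost with the poly-A covariate and with arrays centred on their median. Its probe set 1422810_at measured 9.50, 9.19, 8.84, 9.39 and 9.12 in B6C3F1 hearts, 9.95, 10.16, 10.01, 10.17 and 9.86 in C3H hearts and 7.64, 7.15, 7.45, 7.10 and 7.13 in C57Bl/6 hearts. All 3 groups stood apart there, with C3H highest, and the C3H minus C57Bl/6 difference was 2.74 (adjusted p = 1.42e-11). In that set the hybrid differed from C57Bl/6 by 1.91 (adjusted p = 3.68e-08) and from C3H by -0.82 (adjusted p = 0.00109). Its difference from the midparent was 0.55 (adjusted p = 0.0477). Its probe set 1426896_at measured 8.12, 8.80, 7.76, 8.74 and 8.62 in B6C3F1 hearts, 7.65, 6.88, 7.03, 6.87 and 6.97 in C3H hearts and 8.88, 8.86, 9.34, 9.10 and 8.71 in C57Bl/6 hearts, with all C3H arrays below all others. The difference there was -1.90 (adjusted p = 1.09e-06), and the 3 remaining probe sets of Zfp24 gave -0.96, -0.01 and 0.03. For 1426896_at, B6C3F1 minus C3H was 1.33 (adjusted p = 0.000321).

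For Zfp991, the probe set 1424784_at measured 7.30, 6.98, 7.25, 7.28 and 7.18 in B6C3F1 hearts, 5.84, 6.36, 5.75, 6.10 and 5.61 in C3H hearts and 7.94, 7.43, 7.54, 7.89 and 7.68 in C57Bl/6 hearts. C57Bl/6 was highest and C3H lowest there, without overlap of any 2 groups, the reverse of the order in the probe set of highest mean. The difference was -1.77 (adjusted p = 1.66e-06), against 2.04 in the probe set of highest mean, so that the direction of Zfp991 depends on the probe set. In 1424784_at, B6C3F1 minus C57Bl/6 was -0.50 (adjusted p = 0.173) and B6C3F1 minus C3H was 1.27 (adjusted p = 0.000336). The hybrid calls of Zfp991 therefore depend on the probe set too. For Zfp704 the second probe set gave 0.84 (adjusted p = 0.00185), against -0.62 in the first. B6C3F1 minus C57Bl/6 was 0.70 in the second (adjusted p = 0.0288), against -0.21 in the first. Zfp386 is a gene whose second probe set moved the same way, with -1.04 (adjusted p = 9.96e-05), and for Zfp106 the probe sets 1425097_a_at and 1425098_at gave 0.84 and 1.01, both called, while 1425331_at gave -0.04. In the same order, B6C3F1 minus C57Bl/6 was 0.60, 0.55 and -0.25 for Zfp106 (adjusted p = 0.0311, 0.0357 and 0.233). B6C3F1 minus C3H was -0.24 and -0.46 in the called sets (adjusted p = 0.422 and 0.0658). The place of the Zfp106 hybrid therefore depends on the probe set. Of the genes not called between the parents, 114 other probe sets were tested and 10 were called, against 13.7% of all probe sets in that fit. The largest of these was that of Zfp871, whose second probe set (1435163_at) measured 7.42, 7.40, 7.25, 7.53 and 7.86 in B6C3F1 hearts, 5.34, 6.35, 4.49, 5.93 and 6.38 in C3H hearts and 8.18, 8.46, 8.46, 8.70 and 8.59 in C57Bl/6 hearts. The 3 groups did not overlap, and the difference was -2.78 (adjusted p = 4.48e-07), against 0.10 in the probe set of highest mean. The array's probes have 1 fixed sequence each, and the part of strain differences in probe sequence was not tested.

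**Figure D5:**
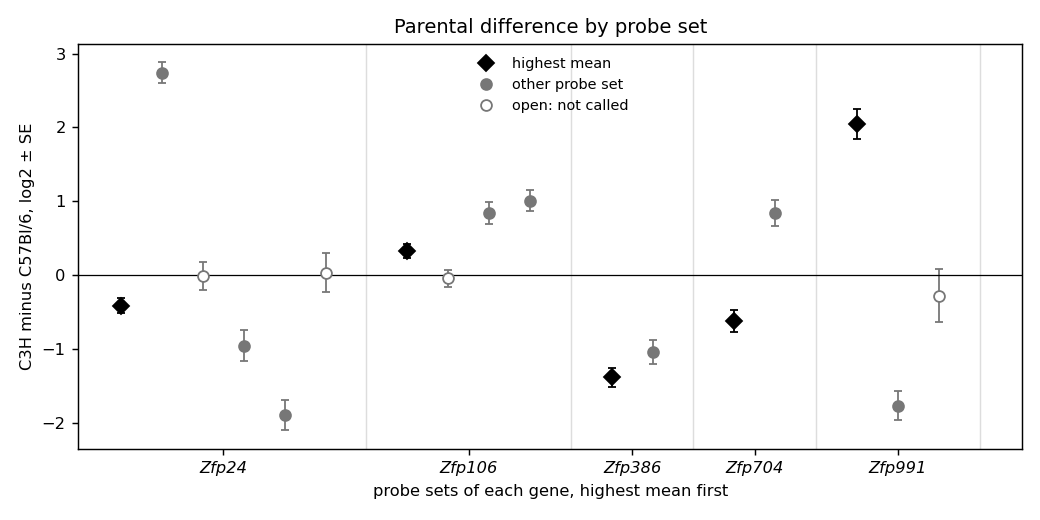
C3H minus C57Bl/6 difference (y axis, log2, with SE bars) of every tested probe set of 5 Zfp genes, ordered by mean within a gene; the probe set of highest mean is a black diamond, other sets are grey, and open symbols were not called. Probe sets of Zfp24, Zfp704 and Zfp991 were called in opposite directions, and those of Zfp386 in the same one.

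The Zfp genes were unevenly spread over the chromosomes, named here from the GRCm38.p6 gene table. Chromosome 7 held 47 (23.5%, against 7.71% of all genes tested), chromosome 17 held 28 (14.0%, against 4.74%) and chromosome 8 held 18 (9.0%, against 5.39%). Between the parents, 5 of the 47 genes on chromosome 7, 3 of the 28 on chromosome 17 and 3 of the 18 on chromosome 8 were called, against 13.8%, 17.2% and 17.6% of all genes tested on chromosomes 7, 17 and 8. The called genes on chromosome 7 were split, with 3 higher and 2 lower in C3H. The 3 called on chromosome 17 were all higher in C3H (Zfp995, Zfp598 and Zfp52), and all 3 calls were lost with the poly-A covariate. The call of Zfp995 was also lost without C3H replicate 2, 3 or 4 and without _x_at and _s_at probe sets, where its other probe set gave 0.10 (adjusted p = 0.891). That of Zfp52 was also lost without C3H replicate 3 or 4. The C57Bl/6 mean of Zfp995 was 6.78, under the limit of 7. By gene order, 30 pairs of Zfp genes were next to each other, with no protein-coding gene between them. Both genes were called between the parents in 0 of the 30 pairs, and 1 gene was called in 5 pairs. The called genes Zfp24 and Zfp397 lay on either side of Zfp35, with opposite directions. The pairs held 50 of the 200 genes. With 17% of the Zfp genes called, few pairs could be called in both genes. No share for neighbouring pairs of other genes was taken, so that the 0 is a description only. Of the 122 distinct tested genes within 3 protein-coding genes of a called Zfp gene, the called Zfp genes themselves left out, 28 were called (23%), against 15.7% of all genes tested. Shares near uncalled Zfp genes or near other called genes were not taken, so that the 23% is a description only. Among the 28 were Zfp939, near Zfp619, and Zfp882, near Zfp961, each below the limit of 7 and lower in C3H.

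The widest within-strain spread was that of Zfp444, Zfp30 and Zfp142. Zfp444 measured 7.02, 7.40, 7.43, 7.67 and 7.55 in B6C3F1 hearts, 7.15, 6.97, 6.75, 6.71 and 6.71 in C3H hearts and 7.92, 7.85, 7.46, 7.50 and 4.97 in C57Bl/6 hearts. C57Bl/6 replicate 5 was far below every other array, and the parental difference of -0.28 was not called. Without that array it was -0.83, with an adjusted p of 0.00654. Zfp30 measured 7.87, 7.40, 8.31, 7.93 and 6.93 in B6C3F1 hearts, 8.08, 8.03, 6.63, 8.99 and 6.49 in C3H hearts and 8.16, 7.73, 8.29, 8.38 and 7.61 in C57Bl/6 hearts, with the widest scatter in C3H. Zfp142 measured 8.30, 8.26, 8.23, 8.31 and 7.58 in B6C3F1 hearts, 8.16, 8.20, 8.05, 8.27 and 7.71 in C3H hearts and 8.16, 8.43, 8.29, 6.29 and 7.97 in C57Bl/6 hearts, where 1 array of C57Bl/6 was far below the rest.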

How the data were processed

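RNA of 15 hearts, each labelled as a separate mouse, was measured on Affymetrix arrays of 45096 probe sets. The deposited values are log2 signals, 1 per probe set and array. MAS5 made them per the submitters' processing notes; its version and the log base are not given in the sources used here, and the log2 scale was read from the values, whose linear trimmed mean is about 500.3 on every array. The 64 control probe sets were left out of the tests. Of the probe sets, 34940 had 1 gene symbol in the platform annotation, 932 several and 9160 none, and only those with 1 symbol were used.

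From these values, 16 was added to the linear signal and log2 was taken, each gene kept its probe set of highest mean, and probe sets under the 40th percentile of all means (5.74) were not tested. All 15 arrays were fitted together with limma 3.58.1 (lmFit and eBayes with intensity trend, R 4.3.3), with Benjamini-Hochberg adjustment over 13111 genes, and a gene was called at an adjusted p under 0.05. The fit was tested on simulated data. The number of arrays limits the precision. No 2 arrays held identical values. Same-numbered arrays did not deviate together (correlations of -0.06 to 0.13, over 0.1 in 2 of 15 pairs), so that replicate numbers were not used as pairs.

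The text names up to 10 largest rises and 10 largest falls among called genes without overlap between the parents, the 5 largest hybrid calls in each direction against each parent, midparent calls, the 5 highest means, the 3 genes on either side of the limit of 7, the 3 of widest spread, genes of known role and called co-repressors. The genes and lists were chosen with earlier results of these data known. The alternatives tried were other constants, filters, scalings, probe set types and member limits, no intensity trend, the replicate number as a block, 2 technical covariates, only the 2 groups compared, and leaving out each array.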

Additional observations from a re-analysis of the deposited data

Results flagged for a closer look

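Single arrays stood far from the other 4 of their strain in 9 of the 123 strain groups of the 41 Zfp genes examined (7.32%), where the gap to the nearest array exceeded 0.71 of the group's range; chance flags about 1 in 20 groups. The 41 genes include Zfp444, Zfp30 and Zfp142, chosen for their wide spread, which supply 3 of the 9, so that this share is not a test. All values are log2(signal + 16). In B6C3F1, replicate 5 read 7.58 for Zfp142 (others 8.23 to 8.31) and 11.23 for Zfp771 (others 11.87 to 12.05). Replicate 1 of B6C3F1 read 9.57 for Zfp568 (others 9.89 to 9.97) and 9.155 for Zfp612 (others 8.08 to 8.37). In C3H, the lone arrays were replicate 4 for Zfp105 at 6.914 (others 7.35 to 7.53), replicate 3 for Zfp397 at 7.715 (others 8.22 to 8.40) and replicate 1 for Zfp867 at 5.531 (others 6.50 to 6.90). In C57Bl/6, they were replicate 4 for Zfp142 at 6.286 (others 7.97 to 8.43) and replicate 5 for Zfp444 at 4.971 (others 7.46 to 7.92).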

How the results depend on the processing

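No called difference of a named gene changed direction under the 28 alternatives, which keep the probe set of highest mean unless its type was left out; other probe sets of Zfp991 and Zfp704 were called the opposite way. Of the calls, 16 of the 34 between the parents held in every one of the 28 alternatives in which the gene was tested, Zfp386, Zfp619, Zfp428 and Zfp330 among them. The 34 calls between C3H and C57Bl/6 became 19 with the poly-A covariate and 26 to 41 when single arrays were left out. The 9 calls of B6C3F1 minus C57Bl/6 became 5 with arrays centred on their median, 5 without the intensity trend, 5 with a limit of 8 in place of 7, and 4 to 13 when single arrays were left out. The 9 calls of B6C3F1 minus C3H became 5 with the poly-A covariate and 5 to 14 when single arrays were left out. The 1 midparent call became 0 without the intensity trend and 0 to 2 when single arrays were left out (0 without B6C3F1 replicate 2 or 3, and 2 without B6C3F1 replicate 5). These counts cover all Zfp genes, and the call of Zfp445 itself was also lost without B6C3F1 replicate 1 (limma adjusted p = 0.0573). The 9 calls in the other zinc finger families became 5 with the poly-A covariate and 6 to 9 when single arrays were left out. The alternatives for these families, the hybrid's place, the other probe sets and the co-repressors were chosen after seeing the data. The cause of these changes was not tested. With the replicate number as a block, the counts were 30 between the parents, 7 for B6C3F1 minus C57Bl/6, 11 for B6C3F1 minus C3H and 1 for the midparent; the numbers do not pair the mice.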

Other observations

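Zfp genes below the limit of 7 were not among the 200 genes, yet 68 of them were tested, and 5 were called between the parents (7.35%, against 15.7% of all genes tested). Of the 2052 genes called in all, 1897 had a mean of 7 or more, so that 15.7% is not a background for dim genes. All 5 of these Zfp genes were lower in C3H, and they were named after their values were seen. Their C3H minus C57Bl/6 differences were -1.54 for Zfp939 (limma adjusted p = 0.000132), -1.23 for Zfp963 (adjusted p = 0.000442), -1.12 for Zfp661, -1.11 for Zfp882 and -1.02 for Zfp429. A gene whose mean lies near the filter can pass it through the strain in which it is high, so that their direction is given as a description.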
